A study of Mus musculus with 23 samples.

Results

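The response of ribosome-bound mRNA to chronic LDOPA that direct and indirect pathway medium spiny neurons (MSNs) have in common was measured here. It was taken as the difference between chronic and acute LDOPA over both BacTRAP lines, with the line as a term of the model. All 23 arrays of the series were used, chosen by the line and the treatment in their labels. In these mice an EGFP-tagged L10a ribosomal protein was expressed from the DRD1A promoter (direct pathway) or the DRD2 promoter (indirect pathway), each in 1 BAC line. Translating ribosome affinity purification (TRAP) took the mRNA on tagged ribosomes from the striatum of the lesioned hemisphere of each mouse. Every mouse, controls included, had a unilateral 6-OHDA lesion and received LDOPA with benserazide (6 and 15 mg/kg) on day 22, 40 min before dissection at 71 days of age. Mice of the chronic LDOPA groups had received the same dose 2 times a day for 21 days, and mice of the acute LDOPA groups saline. The labels gave 7 arrays for DRD1A acute LDOPA, 8 for DRD1A chronic LDOPA, 4 for DRD2 acute LDOPA and 4 for DRD2 chronic LDOPA. The study's text attaches these group sizes to the groups in another order, and the labels were followed here. There was no group without LDOPA on the last day, so that the comparison is of repeated with first exposure.

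DRD2 chronic LDOPA replicates 2 and 3 were near-identical. Their log2 signals correlated at 0.99 over the probes kept, and the next highest correlation among the 253 array pairs was 0.928. The SD of their log2 difference was 0.149, where the next lowest was 0.403. They were averaged and counted as 1 sample, which left 22 samples, with 3 for DRD2 chronic LDOPA. Replicates were numbered here only to name them. The arrays lay on 4 BeadChips. BeadChip 1 held 4 DRD1A acute and 2 DRD2 chronic LDOPA arrays only, so that within it treatment and line cannot be told apart. BeadChip 2 held no DRD2 chronic LDOPA array, and BeadChips 3 and 4 held all 4 groups.

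Striatal MSNs receive dopamine through D1 receptors, which raise cAMP through the G protein Golf, or through D2 receptors, which act through Gi and Go. In the dopamine-depleted striatum LDOPA drives cAMP and calcium signalling towards the transcription factor CREB1, and repeated dosing is known to raise prodynorphin mRNA (PDYN), the precursor of dynorphin, in direct pathway MSNs. Go is among the most abundant G proteins of brain.

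Between 13114 and 17443 probes were detected per array (detection p under 0.05). DRD2 separated the lines, with log2 signals of 7.11 to 7.76 in the DRD1A line and 9.95 to 11.46 in the DRD2 line. DRD1A mRNA did not separate them fully. It lay between 8.12 and 10.35 in the DRD1A line, and at 9.28 in DRD2 chronic LDOPA replicate 1, 8.50 in DRD2 chronic LDOPA replicate 4 and 8.42 in DRD2 acute LDOPA replicate 1, against 7.12 to 7.47 in the other DRD2 samples. PPP1R1B (DARPP-32), a marker of all MSNs, was at 11.29 to 12.23 in every sample. ADORA2A, a defining gene of indirect pathway MSNs, was near background in every group on its brightest probe (7.04 to 7.37).

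Of 32255 probes kept, 4 passed the test for the common effect of chronic LDOPA, which is 0.0124% of them (limma, Benjamini-Hochberg adjusted p under 0.05). PDYN rose, and CREB1, GNAO1 and NECAP1 fell. At an unadjusted p under 0.05, 1234 probes were higher (3.83%) and 1345 lower (4.17%) after chronic LDOPA. In 3 probes (0.0093%) the chronic and the acute samples did not overlap in the DRD1A line nor in the DRD2 line, with the same direction in both, and these were the called probes of PDYN, CREB1 and GNAO1. No probe separated the samples in opposite directions. Within the DRD1A line alone the samples did not overlap in 18 probes that were higher and 26 that were lower, and within the smaller DRD2 line in 1058 and 1167.

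**Figure D1:**
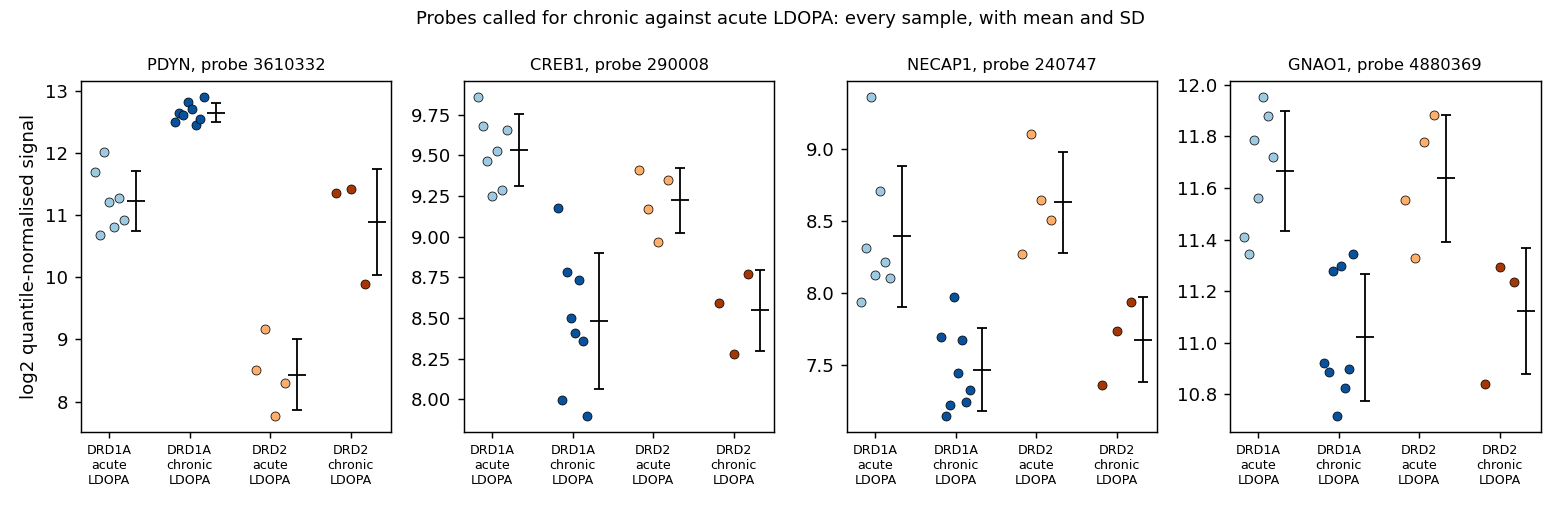
Log2 quantile-normalised signal of the 4 called probes in each of the 22 samples, by group, with the mean and SD beside the points. All chronic LDOPA samples lie above the acute samples of their line for PDYN and below them for CREB1 and GNAO1, and 1 DRD1A chronic sample of NECAP1 overlaps the acute range.

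The promoters of the 4 called genes are shown with that of HIST1H3E, a histone H3 gene described further on as an example. CREB1 acts through the cAMP response element (CRE, TGACGTCA) and its shorter core TGACG, and CCAAT is a common element of histone promoters. Each sequence is the 250 bases before an annotated transcription start in RefSeq (GRCm38.p6), 5′ to 3′ on the strand of the gene, with matches to TGACG or CCAAT on either strand in capitals. PDYN has 2 annotated starts.
PDYN, chr2:129699939-129700188, minus strand: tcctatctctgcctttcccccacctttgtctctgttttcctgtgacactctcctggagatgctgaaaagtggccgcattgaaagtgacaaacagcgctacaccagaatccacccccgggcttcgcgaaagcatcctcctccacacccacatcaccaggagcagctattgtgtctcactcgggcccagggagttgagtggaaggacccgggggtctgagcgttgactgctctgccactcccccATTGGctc
PDYN, chr2:129698659-129698908, minus strand: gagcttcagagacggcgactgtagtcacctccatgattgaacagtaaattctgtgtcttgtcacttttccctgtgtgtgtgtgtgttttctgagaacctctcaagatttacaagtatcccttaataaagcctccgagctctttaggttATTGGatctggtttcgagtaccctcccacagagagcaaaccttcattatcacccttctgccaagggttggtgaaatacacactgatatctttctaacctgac
CREB1, chr1:64532554-64532803, plus strand: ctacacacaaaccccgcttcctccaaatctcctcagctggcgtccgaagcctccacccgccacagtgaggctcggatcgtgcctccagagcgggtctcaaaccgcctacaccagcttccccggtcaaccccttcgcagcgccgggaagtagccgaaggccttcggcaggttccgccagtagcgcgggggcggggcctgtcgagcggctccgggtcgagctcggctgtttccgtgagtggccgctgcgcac
GNAO1, chr8:93810588-93810837, plus strand: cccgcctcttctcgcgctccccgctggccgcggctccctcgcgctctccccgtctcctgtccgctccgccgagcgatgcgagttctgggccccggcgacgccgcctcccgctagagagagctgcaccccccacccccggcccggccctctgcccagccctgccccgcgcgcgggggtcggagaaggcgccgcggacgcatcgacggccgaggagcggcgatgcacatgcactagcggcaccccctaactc
NECAP1, chr6:122874307-122874556, plus strand: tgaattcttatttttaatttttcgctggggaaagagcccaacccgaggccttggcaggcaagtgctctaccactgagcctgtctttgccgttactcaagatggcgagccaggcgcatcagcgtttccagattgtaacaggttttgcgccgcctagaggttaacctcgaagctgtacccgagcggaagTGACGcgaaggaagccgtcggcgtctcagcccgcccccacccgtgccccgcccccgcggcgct
HIST1H3E (H3c6), chr13:23562386-23562635, minus strand: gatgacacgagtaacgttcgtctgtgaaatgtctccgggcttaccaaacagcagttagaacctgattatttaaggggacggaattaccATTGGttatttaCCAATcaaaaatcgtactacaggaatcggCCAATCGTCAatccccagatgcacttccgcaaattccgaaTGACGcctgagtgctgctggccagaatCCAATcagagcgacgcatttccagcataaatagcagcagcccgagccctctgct
No full CRE occurred in these windows. Of the 4 called genes, NECAP1 alone held the core, 58 bases before the start, and each PDYN window held 1 CCAAT. The HIST1H3E window held 2 cores and 4 CCAAT matches. It does not stand for all histone genes. Of 8 H3 genes 4 were matched to such a window by their current name, of which 1 held the core and 3 CCAAT. Of 11 H4 genes so matched, 4 held the core, 3 CCAAT and 2 a full CRE. Among 26 H2A and H2B genes so matched, 17 held the core, 26 CCAAT and 2 a full CRE. A gene could be missed where a probe of it lacked a current name, as for HIST1H3D. Of all 32841 promoter windows of this length without unknown bases, 1.55% held a full CRE, 17.8% the core, which every full CRE also contains, and 33.9% CCAAT. The windows end at the start site and say nothing of elements further away.

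PDYN, which encodes the precursor of the dynorphin peptides, had the smallest p of all probes. On probe 3610332 its log2 signal in DRD1A acute LDOPA ranged from 10.68 to 12.004 with a median of 11.21, and in DRD1A chronic LDOPA from 12.45 to 12.90 with a median of 12.62. The 8 chronic samples were closer together (SD 0.15) than the 7 acute samples (SD 0.48). In the DRD2 line the 4 acute samples were at 8.50, 9.16, 7.77 and 8.30, and the chronic samples were at 11.35 (replicate 1), 11.41 (replicates 2 and 3) and 9.90 (replicate 4). The groups did not overlap in either line. The common log2 difference was 1.74 ± 0.22 (SE, 22 samples), or 3.34-fold higher, with a 95% interval of 1.28 to 2.19 and a limma adjusted p of 0.00345. The rise was 1.41 ± 0.24 in the DRD1A line and 2.45 ± 0.35 in the DRD2 line. The difference between these (DRD1A minus DRD2) was -1.04 with an interval of -1.92 to -0.16, and it did not pass over all probes (adjusted p = 0.883).

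PDYN is itself a marker of direct pathway MSNs, and DRD1A mRNA was uneven over the DRD2 samples. DRD2 chronic LDOPA replicate 1 had the highest DRD1A signal of the line (9.28) with PDYN at 11.35. The averaged replicates 2 and 3 had the lowest DRD1A signal (7.12) with PDYN at 11.41. Replicate 4 had DRD1A at 8.50 and the lowest PDYN of the chronic samples. In the same samples TAC1, the substance P precursor and another direct pathway marker, was at 7.35 to 8.29 in the DRD2 chronic samples and 7.62 to 9.71 in the DRD2 acute samples. The median of DRD1A itself was 8.50 in the DRD2 chronic and 7.46 in the DRD2 acute samples. Over 9 direct pathway markers, PDYN among them, the median change was 0.295 in the DRD2 line and -0.01 in the DRD1A line. The part of direct pathway mRNA in the PDYN rise of the DRD2 line was not tested. Without DRD2 chronic replicate 1 and DRD2 acute replicate 1, but with DRD2 chronic replicate 4, the difference of PDYN was 1.62 (adjusted p = 0.0227). The mRNA of each sample was pooled from many cells, so that a change in the number of cells and a change in mRNA per cell cannot be told apart. With the BeadChip as a block the difference was 1.95 (adjusted p = 0.000343), and within BeadChips 2, 3 and 4 it was 1.76, 2.32 and 1.66. A second and dimmer PDYN probe, 1260300, differed by 0.30 ± 0.11 (adjusted p = 0.47). The call of probe 3610332 was lost in the fits to BeadChips 2 to 4 and to BeadChips 3 and 4 with a block (adjusted p = 0.0952 and 0.271) and with no term for the line (adjusted p = 0.251), where the difference was 1.89, 2.00 and 1.95.

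CREB1, a transcription factor that binds CREs and is phosphorylated by kinases such as PKA, was lower after chronic LDOPA on probe 290008. In DRD1A acute LDOPA its log2 signal ranged from 9.25 to 9.86 with a median of 9.53, and in DRD1A chronic LDOPA from 7.90 to 9.18 with a median of 8.45. In the DRD2 line the acute samples were at 9.41, 9.17, 8.97 and 9.35 and the chronic samples at 8.59, 8.28 and 8.77. The highest chronic sample of each line lay below the lowest acute one, in the DRD1A line by a small margin. The common difference was -0.93 ± 0.13, or 1.91-fold lower, with an interval of -1.21 to -0.65 and an adjusted p of 0.0118. It was -1.05 ± 0.16 in the DRD1A line and -0.67 ± 0.23 in the DRD2 line. Within BeadChips 2, 3 and 4 the difference was -0.94, -0.79 and -1.02. With the BeadChip as a block it was -0.89 and the call was lost (adjusted p = 0.073). The call was also lost without BeadChip 1 (-0.95, adjusted p = 0.342), in BeadChips 2 to 4 and in BeadChips 3 and 4 with a block (adjusted p = 0.379 and 0.812), for the equal-weight mean of both lines (-0.86, adjusted p = 0.067) and with arrays scaled to their median (-0.66, adjusted p = 0.0685).

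The fall of CREB1 was seen on 1 of 6 probes. Probe 3130543, which was not detected on most arrays, differed by -0.31 ± 0.11 (adjusted p = 0.443), and probes 130707 and 1740725 by -0.25 and -0.11 (adjusted p = 0.692 and 0.804). Probe 4120639, detected on all 23 arrays, differed by 0.06 ± 0.21 (adjusted p = 0.962), with 0.28 in the DRD1A line and -0.43 in the DRD2 line. Probe 620707, which few arrays detected, differed by 0.04. Which region of CREB1 mRNA each probe reads was not analysed here. No other member of the CREB family and its coactivators passed. Of 11 such genes by their brightest probes, 1 was lower at an unadjusted p under 0.05 (CREB1 itself) and none higher, with a median difference of -0.12 beside -0.00185 over all probes.

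GNAO1, the α subunit of Go, was lower on probe 4880369. In DRD1A acute LDOPA its log2 signal ranged from 11.35 to 11.95 with a median of 11.72, and in DRD1A chronic LDOPA from 10.72 to 11.34 with a median of 10.91. The acute samples of the DRD2 line were at 11.56, 11.33, 11.78 and 11.88 and the chronic samples at 10.84, 11.29 and 11.24. The groups were next to each other with a gap smaller than the spread within either. The common difference was -0.60 ± 0.10, or 1.52-fold lower, with an interval of -0.81 to -0.40 and an adjusted p of 0.0438. It was -0.64 ± 0.12 in the DRD1A line and -0.51 ± 0.18 in the DRD2 line, and -1.05, -0.61 and -0.68 within BeadChips 2, 3 and 4. With the BeadChip as a block it was -0.68 and the call was lost (adjusted p = 0.0552). With arrays scaled to their median in place of quantile normalization it was -0.20 (adjusted p = 0.529), and without BeadChip 1 it was -0.63 (adjusted p = 0.363). The second probe, 2260327, differed by -0.27 ± 0.20 (adjusted p = 0.77).

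NECAP1, a clathrin-adaptor binding protein of endocytic vesicles, was lower on probe 240747. Its log2 signal ranged from 7.94 to 9.36 with a median of 8.22 in DRD1A acute LDOPA and from 7.15 to 7.97 with a median of 7.38 in DRD1A chronic LDOPA. For the DRD2 line the acute samples were at 8.27, 9.10, 8.64 and 8.51 and the chronic samples at 7.36, 7.73 and 7.94. In the DRD1A line 7 of 8 chronic samples lay below all acute samples, and in the DRD2 line all 3 did. The common difference was -0.94 ± 0.15, or 1.91-fold lower (adjusted p = 0.0438), with -0.93 ± 0.19 in the DRD1A line and -0.95 ± 0.28 in the DRD2 line. Within BeadChips 2, 3 and 4 it was -1.28, -0.77 and -0.64, and with the BeadChip as a block -0.93 (adjusted p = 0.1), without a call. Without BeadChip 1 it was -0.87 (adjusted p = 0.287), and with normexp background correction -1.90 (adjusted p = 0.029). The probe was dim, and 6 of 8 DRD1A chronic arrays detected it. The brighter probes 1300088 and 1300307 differed by -0.32 ± 0.12 and -0.30 ± 0.18 (adjusted p = 0.49 and 0.711).

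**Figure D2:**
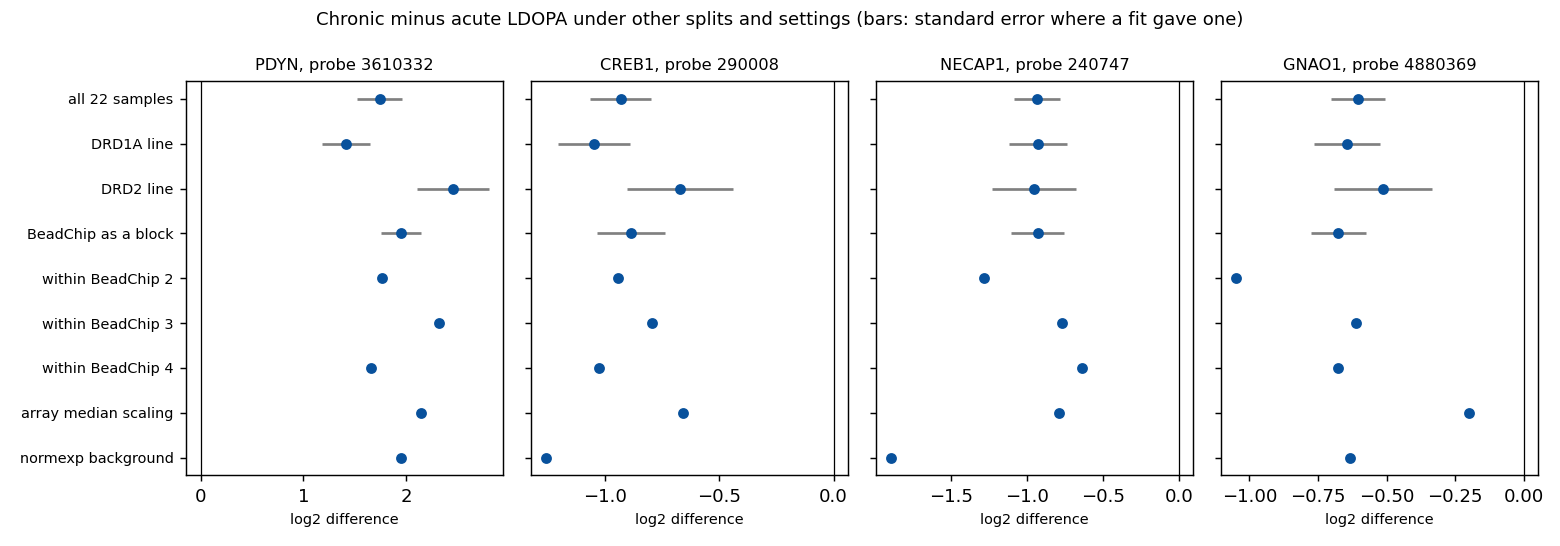
Log2 difference of chronic minus acute LDOPA for the 4 called probes over all 22 samples, in each line, with the BeadChip as a block, within BeadChips 2, 3 and 4, and under 2 other scalings, with standard errors where a fit gave one. The direction is the same in every row, and GNAO1 is nearest to 0 when arrays are scaled to their median (-0.20).

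PDYN and CREB1 kept their calls when each of the 23 arrays was left out in turn (highest adjusted p 0.0132 and 0.0399). GNAO1 kept its call in 11 of these 23 fits. It was lost without DRD1A acute replicate 3, 4, 5, 6 or 7, without DRD1A chronic replicate 1, 2, 4 or 7, without DRD2 acute replicate 3 and without DRD2 chronic replicate 1 or 2, with adjusted p up to 0.118. NECAP1 kept its call in 8 of 23. It was lost without DRD1A acute replicate 2, 4, 5, 6 or 7, without DRD1A chronic replicate 1, 2, 3, 5, 7 or 8, without DRD2 acute replicate 2 or 3 and without DRD2 chronic replicate 1 or 2, also with adjusted p up to 0.118. The log2 difference stayed between -0.64 and -0.57 for GNAO1 and between -0.99 and -0.83 for NECAP1 over these fits. Both were just inside the threshold, and the nearest probe just outside it was at an adjusted p of 0.0574.

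In all, 17 probes had an adjusted p from 0.05 to 0.10, and 8 of them were histone H3 or H4 genes. Other genes near the threshold are given next as values, without a call. MGLL, monoacylglycerol lipase, which breaks down the endocannabinoid 2-arachidonoylglycerol, ranged from 7.86 to 8.89 in DRD1A acute LDOPA and from 8.80 to 10.08 in DRD1A chronic LDOPA. The DRD2 line samples were at 7.85, 7.17, 8.53 and 8.43 after acute and at 9.30, 8.68 and 8.81 after chronic LDOPA. Its difference was 1.05 ± 0.18 (adjusted p = 0.0574), close in both lines (1.10 and 0.94), and 0.97 with the BeadChip as a block. TOMM70A, a receptor of the mitochondrial import machinery, ranged from 9.46 to 10.10 in DRD1A acute and from 10.22 to 10.98 in DRD1A chronic LDOPA, without overlap. Its difference was 0.70 ± 0.13 (adjusted p = 0.0574), with 0.90 in the DRD1A line and 0.26 in the DRD2 line, where the samples overlapped. PDE1C, a calcium and calmodulin-stimulated phosphodiesterase, differed by 1.39 ± 0.28 (adjusted p = 0.103), with 1.45 and 1.28 in the DRD1A and DRD2 lines.

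The remaining genes among the 12 with the smallest p in the upward direction differed by 0.14 to 0.74. SYNPR (synaptoporin, of synaptic vesicles) differed by 0.48 and PJA2, an E3 ubiquitin ligase that acts on PKA regulatory subunits, by 0.37, with 0.47 and 0.48 in the DRD1A and DRD2 lines for SYNPR and 0.40 and 0.30 for PJA2. RFXAP, a subunit of the RFX complex, differed by 0.48, ZC3H7B by 0.56, RPRML by 0.46, HCCS (cytochrome c heme lyase) by 0.74, POP5 (a subunit of RNase P) by 0.64 and GLRX3 (a glutaredoxin) by 0.14. Their adjusted p values ran from 0.0844 to 0.189. The GLRX3 probe lay near background, with group means of 7.07 to 7.22. It was detected on no acute LDOPA array, on 4 of 8 DRD1A chronic arrays and on 1 of 4 DRD2 chronic arrays. In the downward direction, beside the 3 called genes and 7 histones, RAB11FIP2, an effector of RAB11 in recycling endosomes, differed by -0.59 ± 0.11 (adjusted p = 0.0599), nearly the same in both lines (-0.60 and -0.57). PNCK, a calcium/calmodulin-dependent kinase, differed by -0.38 ± 0.07 (adjusted p = 0.07), with -0.49 in the DRD1A line and -0.14 in the DRD2 line.

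Core histone genes made up the largest set near the threshold. Replication-dependent histone genes lie in clusters, are best known from dividing cells, and end their mRNAs in a stem-loop in place of a poly(A) tail. No histone gene passed the adjusted threshold. At an unadjusted p under 0.05, 7 of 8 histone H3 genes and 10 of 12 histone H4 genes were lower after chronic LDOPA and none was higher, where 4.17% of all probes were lower. Of 16 histone H2A genes 7 were lower and none higher, of 14 histone H2B genes 3 were lower and 1 higher, and of 6 histone H1 genes none was lower and 1 higher. The median log2 difference was -0.88 for H3, -0.63 for H4, -0.21 for H2A, -0.24 for H2B and -0.03 for H1, beside -0.00185 over all probes. These medians rest on 1 probe a gene, the brightest. With every kept probe counted they were -0.36 for the 13 probes of H3 and -0.55 for the 19 of H4, with 8 and 12 of them lower and none higher. The classes were split after these values had been seen.

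**Figure D3:**
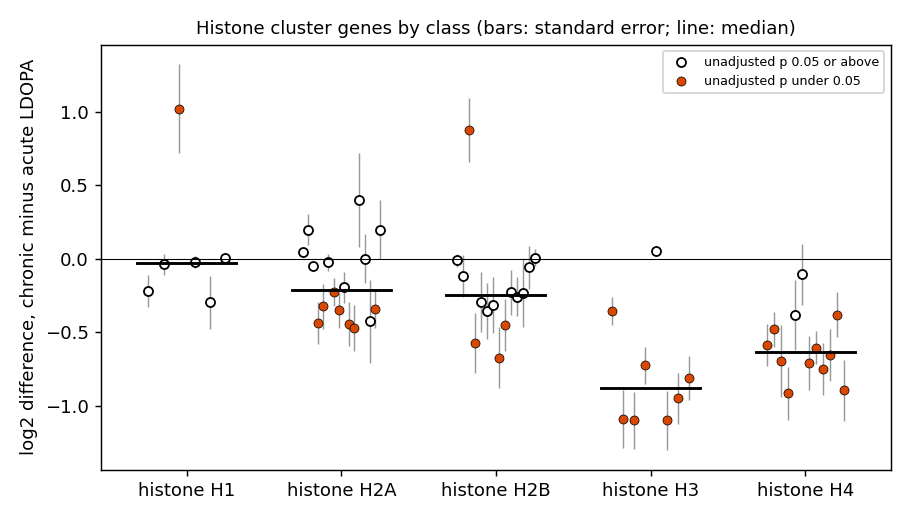
Log2 difference of chronic minus acute LDOPA for histone cluster genes by class, 1 probe a gene, with standard errors and the median of each class. The H3 and H4 genes lie lowest (medians -0.88 and -0.63), H2A and H2B between them and 0, and 1 gene each of H1 and H2B lies well above 0.

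HIST1H3E shows the pattern of the H3 genes. Its log2 signal ranged from 9.64 to 10.46 with a median of 10.03 in DRD1A acute LDOPA and from 7.76 to 10.01 with a median of 9.22 in DRD1A chronic LDOPA. In the DRD2 line it was at 9.96, 9.82, 9.85 and 9.73 after acute and at 8.13, 8.38 and 9.04 after chronic LDOPA. Of the chronic samples, 7 of 8 in the DRD1A line and all 3 in the DRD2 line lay below all acute samples of their line. Its difference was -1.10 ± 0.20 (adjusted p = 0.0574). HIST1H3D (-1.09), HIST1H3H (-1.10), HIST2H3B (-0.95), HIST2H3C1 (-0.81) and HIST1H3F (-0.73) had adjusted p values of 0.0574 to 0.0599. Among H4 genes, HIST1H4J differed by -0.60 (adjusted p = 0.0668), HIST1H4D by -0.92 (0.0965), HIST1H4K by -0.79 (0.112) and HIST4H4 by -0.90 (0.189). The exceptions were HIST1H1C, at 1.02 with 1.64 in the DRD1A line and -0.34 in the DRD2 line, and HIST1H2BC, at 0.87 with 1.25 and 0.05. Both had adjusted p values above 0.2 (0.33 and 0.216). Copies of one histone class are nearly identical in sequence, and a probe may read several of them, so that the genes of a class are not independent measurements.

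Averaged over the 8 H3 genes, the log2 signal was 9.20 ± 0.23 in DRD1A acute LDOPA (SD, n = 7), 8.48 ± 0.39 in DRD1A chronic LDOPA (n = 8), 9.04 ± 0.09 in DRD2 acute LDOPA (n = 4) and 8.18 ± 0.30 in DRD2 chronic LDOPA (n = 3). The DRD2 chronic samples, at 7.92, 8.10 and 8.52, were all below the DRD2 acute samples, at 8.96 to 9.18. For the 12 H4 genes the means were 9.82 ± 0.22, 9.07 ± 0.23, 9.11 ± 0.25 and 8.86 ± 0.57 in the same order. The H4 levels did not overlap in the DRD1A line. In the DRD2 line they did, since replicate 4 of the chronic samples was at 9.51, above the acute samples at 8.92 to 9.47, while the other chronic samples were at 8.54 and 8.51. The median H4 difference was accordingly -0.77 in the DRD1A line and -0.30 in the DRD2 line, and that of H3 -0.81 and -1.09. Within BeadChips 2, 3 and 4 the mean H3 level differed by -0.88, -0.90 and -0.31, and the mean H4 level by -0.74, -0.70 and -0.16, so that the difference was smallest on BeadChip 4.

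**Figure D4:**
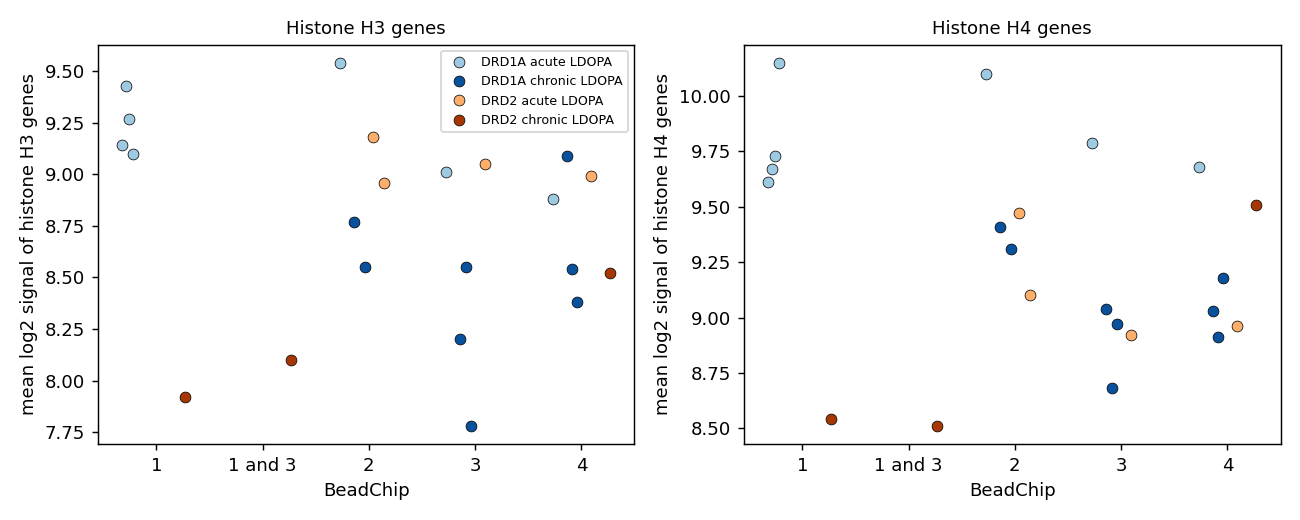
Mean log2 signal of 8 histone H3 genes and of 12 histone H4 genes in each sample, by BeadChip and group, with the averaged pair of DRD2 chronic LDOPA arrays under BeadChips 1 and 3. On BeadChips 2 and 3 the chronic samples of the DRD1A line lie below its acute sample for both classes, and on BeadChip 4 DRD1A chronic replicate 6 lies above it for H3 (9.09).

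Lists of DNA replication and mitosis, of histone variants and of histone mRNA processing had medians nearer to 0 than H3 and H4. Of 20 genes of DNA replication and mitosis, 16 were kept, and none was higher or lower at an unadjusted p under 0.05 (median -0.03). Of 11 histone variants with polyadenylated mRNA 2 were lower, H2AFZ (-0.54) and H3F3A (-0.65), and none higher (median -0.15). Of 9 genes of histone mRNA processing 1 was lower and none higher (median -0.000731). These 3 lists were added after the histone values had been seen.

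Both lines were compared over all probes to see how far the common effect reached. The changes in the DRD1A and DRD2 lines correlated at 0.131 over 32255 probes, and at -0.0701 with the BeadChip as a block. The probes share arrays and BeadChips, and these values are a description. The same sign was found in 52% of probes, and in 45.9% with the block. At an unadjusted p under 0.05 in each line, 149 probes changed in the same direction and 59 in opposite directions, and with the block 68 and 137. Beyond the called probes, the correspondence of the lines over all probes thus depended on whether the BeadChip was in the model. BeadChip 1 held DRD1A acute and DRD2 chronic LDOPA arrays only. An error in its block term therefore moves the changes of the 2 lines in opposite directions. So does a level shift of BeadChip 1 in the fit without the block. The part of either in these values was not tested. The difference between the 2 lines in their response passed for no probe (smallest adjusted p 0.427), with 1796 probes at an unadjusted p under 0.05. For CREB1 the interval of that difference, DRD1A minus DRD2, was -0.96 to 0.21, for GNAO1 -0.58 to 0.32 and for NECAP1 -0.68 to 0.73. Each of these intervals spans values of both signs. Equality of the responses in both lines was not tested. For TOMM70A the interval was 0.14 to 1.13.

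**Figure D5:**
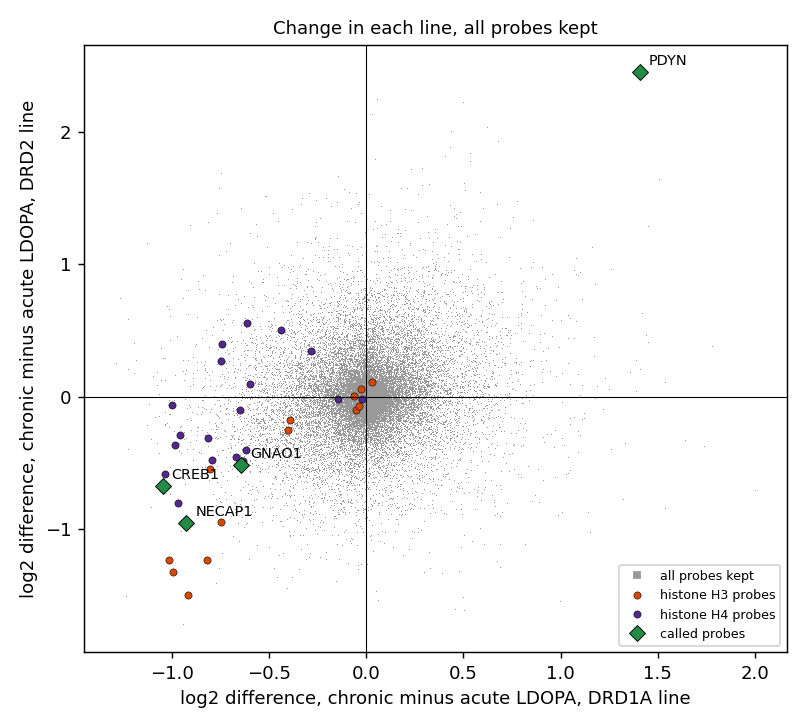
Log2 difference of chronic minus acute LDOPA in the DRD2 line against that in the DRD1A line for 32255 probes, with the called probes and the histone H3 and H4 probes marked. PDYN lies alone at the upper right (1.41 and 2.45), and most H3 and H4 probes lie left of 0.

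Further genes were included because the study names them in connection with chronic LDOPA, and none of those given here passed for the common effect. HTR2A, the serotonin 2A receptor, ranged from 7.64 to 8.40 in DRD1A acute and from 6.999 to 7.882 in DRD1A chronic LDOPA, and differed by -0.46 ± 0.14 (adjusted p = 0.335), with -0.58 in the DRD1A line and -0.20 in the DRD2 line. DVL3, of WNT signalling, differed by -0.47, GNAL, the α subunit of Golf, by 0.35 and MYL9, a myosin light chain, by -0.16 (adjusted p = 0.343, 0.387 and 0.248). DVL3 and GNAL differed by -0.73 and 0.54 in the DRD1A line, with the opposite sign in the DRD2 line (0.10 and -0.08). Their probes disagreed for CAMK4, a calcium/calmodulin-dependent kinase that phosphorylates CREB1 (-0.78 on probe 3170435 and 0.37 on the brighter probe 5560358), and for PRKX, a kinase related to PKA (-0.35 on probe 7560022 and 0.24 on the brighter probe 1170554). GUCY1A3, a subunit of soluble guanylate cyclase, differed by -0.49 and -0.15 on its 2 probes. ITGA9, an integrin, differed by -0.13 and ATP6V0A2, a proton pump subunit, by 0.03 and -0.02. For PAK1 (0.36 and -0.75) and FARP2 (0.32 and -1.18) the changes in the DRD1A and DRD2 lines had opposite signs, and the common differences were 0.01 and -0.15.

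The signalling pathways around these genes were counted with 1 probe for each gene, its brightest, and the counts that follow are at an unadjusted p under 0.05, beside 3.83% of all probes higher and 4.17% lower. Of 7 opioid peptide and receptor genes, PDYN alone was higher. It was also the only 1 of 9 direct pathway MSN markers, while 0 of 7 indirect pathway markers and 2 of 11 markers of all MSNs were higher and none lower. Of 27 genes of PKA, adenylyl cyclases and phosphodiesterases, 3 were higher, PDE1C, PKIA (an inhibitor of PKA, 0.44) and PRKACA (its catalytic subunit, 0.38), and 1 was lower. Of 25 G protein subunits 4 were higher and 4 lower (median -0.07), and GNAO1 was the only 1 called. Of 16 RGS genes 1 was lower and none higher.

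Of 17 immediate early genes 2 were lower, FOSB (-0.76) and JUN (-0.46), and IER5 was higher (0.42), with a median of -0.16. FOSB differed by -0.99 in the DRD1A line and -0.26 in the DRD2 line. Of 15 genes of MAPK feedback, DUSP26 (0.35) and 1 other were higher, and 3 were lower, among them SPRED2 (-0.43) and SPRY2 (-0.54). DUSP26 had opposite signs in the DRD1A and DRD2 lines (0.60 and -0.18). Of 20 core MAPK genes RASGRP1 was higher (0.56) and none lower. Of 19 calcium and calmodulin kinases and phosphatases 1 was lower, PNCK, and 15 of 19 differences were below 0 (median -0.17). Of 28 glutamate receptor and scaffold genes 2 were higher and 2 lower, among the latter GRM5 (-0.38). Of 8 serotonin receptors HTR2A was lower and none higher. These shares mostly rest on 1 to 4 genes. They count the common difference, which can come from 1 line.

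Among genes of general cell functions, 12 of 76 oxidative phosphorylation genes were higher and 1 lower, with a median of 0.08, and 52 of 76 differences above 0. Examples were NDUFC2 (0.32) and NDUFB5 (0.26). Of 63 cytosolic ribosomal protein genes 10 were higher and 2 lower, with a median of 0.09, among them RPL36A (0.43) and RPL32 (0.33). None of these genes was called. With arrays scaled to their median in place of quantile normalization the medians were 0.38 and 0.36, where the 3226 brightest of all probes had a median of 0.35. Of 19 genes of mitochondrial protein import 3 were higher, among them TOMM70A and TOMM22 (0.37), and 1 lower, TOMM34 (-0.40). Of 40 ubiquitin and proteasome genes 3 were higher and 5 lower, among the latter the ubiquitin gene UBB (-0.57, adjusted p = 0.0996). Of 35 heat shock genes 1 was higher and 2 lower.

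No marker of another striatal cell type that was counted passed the adjusted threshold. At an unadjusted p under 0.05, 1 of 8 astrocyte markers (GJA1, 0.61) and 1 of 9 oligodendrocyte markers were higher. So were 1 of 8 cortical excitatory neuron markers and 1 of 7 GABAergic interneuron markers, and none of these 4 lists held a lower one. Of the 9 oligodendrocyte markers 7 had a difference above 0, with a median of 0.27. That median was 0.44 with the BeadChip as a block and 0.05 over all probes of the genes. No marker of cholinergic interneurons, microglia or endothelial cells was higher or lower, of 5, 6 and 2 kept. The summed signal of the oligodendrocyte markers ranged from 3000 to 8150 in DRD1A acute, 3700 to 8560 in DRD1A chronic, 5790 to 7950 in DRD2 acute and 4410 to 13000 in DRD2 chronic LDOPA. That of the astrocyte markers ranged from 2300 to 4740, 2370 to 3670, 2280 to 2980 and 2650 to 5990 in the same order. These ranges overlapped between treatments in each line. The part of these markers in the differences above was not tested.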

How the data were processed

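The deposited intensity values were mean bead intensities per probe, exported by the authors from GenomeStudio without log transformation, normalization or background subtraction. RNA had been amplified with the WT-Ovation Pico system before hybridization to Illumina Mouse WG-6 v2 BeadChips. The deposited detection p-values compare each probe with the negative controls of its array. A deposited table of log2 values that the authors had quantile normalized was used as an alternative only. The values of 1 array that belongs to no listed sample (4 columns) were not used.

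Signals were quantile normalized over 23 arrays, floored at 1 and log2 transformed (R 4.3.3, limma 3.58.1). A probe was kept if, in 1 or more groups, it exceeded the 20th percentile of each array (32255 of 45281 probes). limma's moderated test compared chronic with acute LDOPA with the line as an additive term (19 residual and 1.42 prior degrees of freedom, 20.4 in total), two-sided, with Benjamini-Hochberg adjustment over all probes kept. The response within each line and its difference between lines came from a fit of 4 group means. The script was tested on simulated data. P-values set each difference against the spread between these samples, and array number limits the precision. Symbols are those of the deposited file, and current names were matched by Entrez ID (22265 probes).

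The near-identical arrays were to be DRD2 chronic LDOPA replicates 2 and 4 by the design. The files showed them to be replicates 2 and 3, and these were averaged instead, which was decided after the data were seen. The pairing as written is among the alternatives, which also covered the BeadChip, scaling, background, filter, model and each array left out. The genes and lists were chosen with earlier results of these data known. Named were every probe of PDYN, CREB1 and GNAO1, genes the study names, called genes and the next by p up to 12 genes a direction (without predicted or clone names), and up to 4 members of the lists described.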

Additional observations from a re-analysis of the deposited data

Results flagged for a closer look

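In the 237 groups of 4 to 8 samples checked over the probes named, 12 held a sample far from the rest of its group, where chance alone flags about 1 group in 20. In DRD1A chronic LDOPA, replicate 3 stood apart for ATP6V0A2 (log2 signal 7.744 on probe 4780575, nearest other 7.167) and for PKIA (8.376, nearest other 9.200), replicate 7 for DVL3 (7.859), replicate 8 for RAB11FIP2 (8.111) and replicate 2 for SPRED2 (9.097). In DRD1A acute LDOPA, replicate 3 stood apart for CREB1 probe 130707 (8.426, nearest other 7.463), replicate 5 for FARP2 (8.126) and RPS25, a ribosomal protein gene (8.700, nearest other 9.777), and replicate 7 for POP5 (9.548). In DRD2 acute LDOPA, replicate 1 stood apart for FOSB (7.867, nearest other 8.210) and replicate 4 for JUN (9.702, nearest other 8.116) and SYNPR (9.960). None of the 4 called probes held such a sample in these groups. DRD2 chronic LDOPA, with 3 samples, was not checked.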

How the results depend on the processing

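The number of probes called moved with the processing, from 4 here to between 0 and 313. It was 16 with 23 separate arrays (4 higher, 12 lower), 16 with the BeadChip as a random block over the same 23 separate arrays (correlation within BeadChips -0.00395), 23 with the pair averaged as first written in the design (5 higher, 18 lower), 1 with the BeadChip as a fixed block, 1 without BeadChip 1, 0 in BeadChips 2 to 4 with a block and 0 in BeadChips 3 and 4 with a block, the last added after the data were seen. In these 2 fits with no call, 2315 and 1980 probes had an unadjusted p under 0.05. It was 2 without a filter, 18 with detected probes only, 2 in a plain linear model, 1 for the equal-weight mean of both lines and 313 when arrays were scaled to their median (309 higher and 4 lower, against 1 and 3 here). It was 5 with normexp correction, 4 in the series table, 3 without a term for the line, 5 with array weights and 4 without DRD2 acute replicate 1 and DRD2 chronic replicate 1, which leaves in DRD2 chronic replicate 4, also high in DRD1A. Leaving out 1 array gave 2 to 26, highest without DRD2 chronic replicate 4 (26), DRD2 acute replicate 4 (18) and DRD1A chronic replicate 6 (12), and lowest, at 2, without DRD2 chronic replicate 2, DRD2 acute replicate 3, DRD1A acute replicate 4, 5 or 7 or DRD1A chronic replicate 1, 2 or 7. The 4 called probes kept their direction in all 40 alternatives. PDYN stayed past the threshold in 37, CREB1 in 34, GNAO1 in 18 and NECAP1 in 17. Histone H3 and H4 probes passed in 8 cases with 23 separate arrays and in 11 without DRD2 chronic replicate 4. The median of the H3 and of the H4 genes was below 0 in all 41 alternatives run for them, at -0.36 and -0.55 over all probes of the genes and -0.62 and -0.35 with arrays scaled to their median, where that of H2A was 0.00208. The 3 probes without overlap in either line, of 32255 kept, became 8 with arrays scaled to their median. They became 44 of 36794 kept without BeadChip 1, which took away 4 DRD1A acute and 2 DRD2 chronic LDOPA arrays. Without those same 2 DRD2 samples they were 7 of 34506. With 1 array left out they were 2 to 10 (10 without DRD1A chronic replicate 6, 7 without DRD2 chronic replicate 4 or DRD1A acute replicate 6). Smaller groups separate more easily by order alone, so the counts with fewer arrays are not comparable with the 3 here. Line dependence was called for 0 to 7 probes with 1 array left out (1 without DRD2 acute replicate 1, 1 without DRD2 chronic replicate 1 and 7 without DRD2 chronic replicate 4), and for 0 otherwise. The cause of these changes was not tested. The paper describes TRAP on the striatum of each mouse singly, and the labels pair no arrays, so no paired analysis was made. Dim probes such as that of NECAP1 limit what these arrays can show, and DRD2 chronic LDOPA rests on 3 samples.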
